A study of Homo sapiens with 8 samples.

Results

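The genes described here are 10 genes by which the epithelial or mesenchymal state of a carcinoma cell is usually read: the transcription factors SNAI1, SNAI2, TWIST1, ZEB1 and ZEB2, the splicing regulators ESRP1 and ESRP2, the cadherins CDH1 and CDH2, and the intermediate filament gene VIM. They were set by name with no cut on their values, although earlier results of these data were known, and all 10 were found by symbol among the 58688 genes of each count file. In epithelial cells CDH1 (E-cadherin) holds neighbouring cells together, and the ESRP proteins direct the epithelial splice forms of many transcripts. During an epithelial to mesenchymal transition (EMT), zinc-finger factors of the SNAIL and ZEB families and the helix-loop-helix factor TWIST1 repress CDH1 and other epithelial genes, ZEB1 represses ESRP1, and cells gain CDH2 (N-cadherin) and VIM (vimentin). Breast cancers that lack hormone receptors often lie towards the mesenchymal end of this range.

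RNA was sequenced from LM2 cells, selected for lung metastasis from MDA-MB-231, a triple-negative human breast cancer line, in 8 samples. Cells given 1 µmol/L Ponatinib, an inhibitor of ABL and other tyrosine kinases, for 6 h and cells given DMSO have 2 samples each. Stable lines made by lentiviral transduction in the presence of Polybrene carried a scrambled shRNA (shCtrl), an ABL1 shRNA, an ABL2 shRNA or both shRNAs (the ABL1/ABL2 double knockdown), with 1 sample and thus no replicates for each. The study's methods name a single shRNA construct per gene, so an effect of the construct and of the loss of its target cannot be told apart. The labels do not say whether the 2 samples of a group came from separate cultures, so p-values measure only the spread between these samples, which may be technical.

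Reads counted on genes summed to between 7568934 and 13010896 per sample, lowest in Ponatinib replicate 2. Levels are given as normalized CPM, read counts scaled to a common library size with the TMM factors (0.98 to 1.02) of each experiment, and 3 counts, the limit that a count of 0 allows, equal 0.231 to 0.389 normalized CPM. The shRNA experiment and the Ponatinib experiment were normalized separately, and 68 genes had 0 reads in all shRNA samples despite 100 or more in each DMSO or Ponatinib sample, so levels are only set side by side across them. The column headers written in the files of shCtrl and of ABL1 shRNA are exchanged with respect to the labels, and the labels were followed. ABL1, at 72.8 normalized CPM in the library labelled ABL1 shRNA and 190 in that labelled shCtrl, goes with the labels. Of the breast cancer markers, ESR1 had 3 to 11 counts per sample and PGR 0 in all 8, while ERBB2 was at 53.6 to 66.8, KRT18 at 144 to 311 and the epithelial surface gene EPCAM at 5.01 to 11.9 normalized CPM.

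In the DMSO samples VIM was by far the most abundant of the 10 genes, ZEB1 and SNAI2 led the transcription factors, and CDH1 and TWIST1 were not detected. Genes are compared per kb of their canonical transcript, a rough scale, because reads were counted over all exons of a gene. For ZEB2 that transcript has 9265 bases and all annotated exons 26151. Its rank beside SNAI1 in DMSO and its share of the ZEB pair depend on this choice of length. On this scale VIM was at 1340 and 1393 normalized CPM per kb in the 2 DMSO samples. ZEB1 followed at 22.8 and 21.6 normalized CPM per kb, then SNAI2 at 14.3 and 13.7 and ZEB2 at 2.25 and 2.29. SNAI1 stood at 0.984 and 0.652, ESRP2 at 0.644 and 0.53, and ESRP1 at 0.258 and 0.161 normalized CPM per kb. On this scale the ranges of these neighbours in the order did not overlap, although SNAI1 and ESRP2 came close, at 0.652 and 0.644. CDH2 ranged from 0.126 to 0.264 normalized CPM per kb and overlapped ESRP1. CDH1 and TWIST1 had 0 reads in DMSO. The mesenchymal cadherin gene CDH2 was thus itself near the limit of detection in these cells. After Ponatinib the order changed in the middle: SNAI1, at 3.5 and 3.35 normalized CPM per kb, lay above ZEB2, at 1.38 and 1.78, and ESRP1, at 0.981 and 0.827, lay above ESRP2, at 0.304 and 0.0757.

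The first comparison asks what 6 h of Ponatinib did to these genes. SNAI1 and ESRP1 rose 4.12-fold and 4.25-fold, both from low levels. SNAI2, ZEB1 and ZEB2 fell by between 1.46-fold and 1.62-fold, and ESRP2 fell 2.82-fold from few counts. In RNA from a whole culture, a change in the share of cells that express a gene and a change in its RNA per cell cannot be told apart. VIM did not pass the test, and TWIST1, CDH1 and CDH2 had too few reads to be tested. Of the 10 genes, 7 had enough counts for the edgeR fit; 2 of these rose and 4 fell at a Benjamini-Hochberg adjusted p under 0.05, where over all 16031 genes tested 15.0 percent rose and 15.7 percent fell. By a DEG rule with the thresholds of the study's methods (fold change over 2 and p under 0.05), applied here to the unadjusted p because the methods do not name an adjustment, 2 of the 7 rose, SNAI1 and ESRP1, and 1 fell, ESRP2, against 3.19 percent and 2.29 percent of all genes tested. The median log2 fold change was -0.54 over the 7 and -0.00 over all genes tested.

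**Figure D1:**
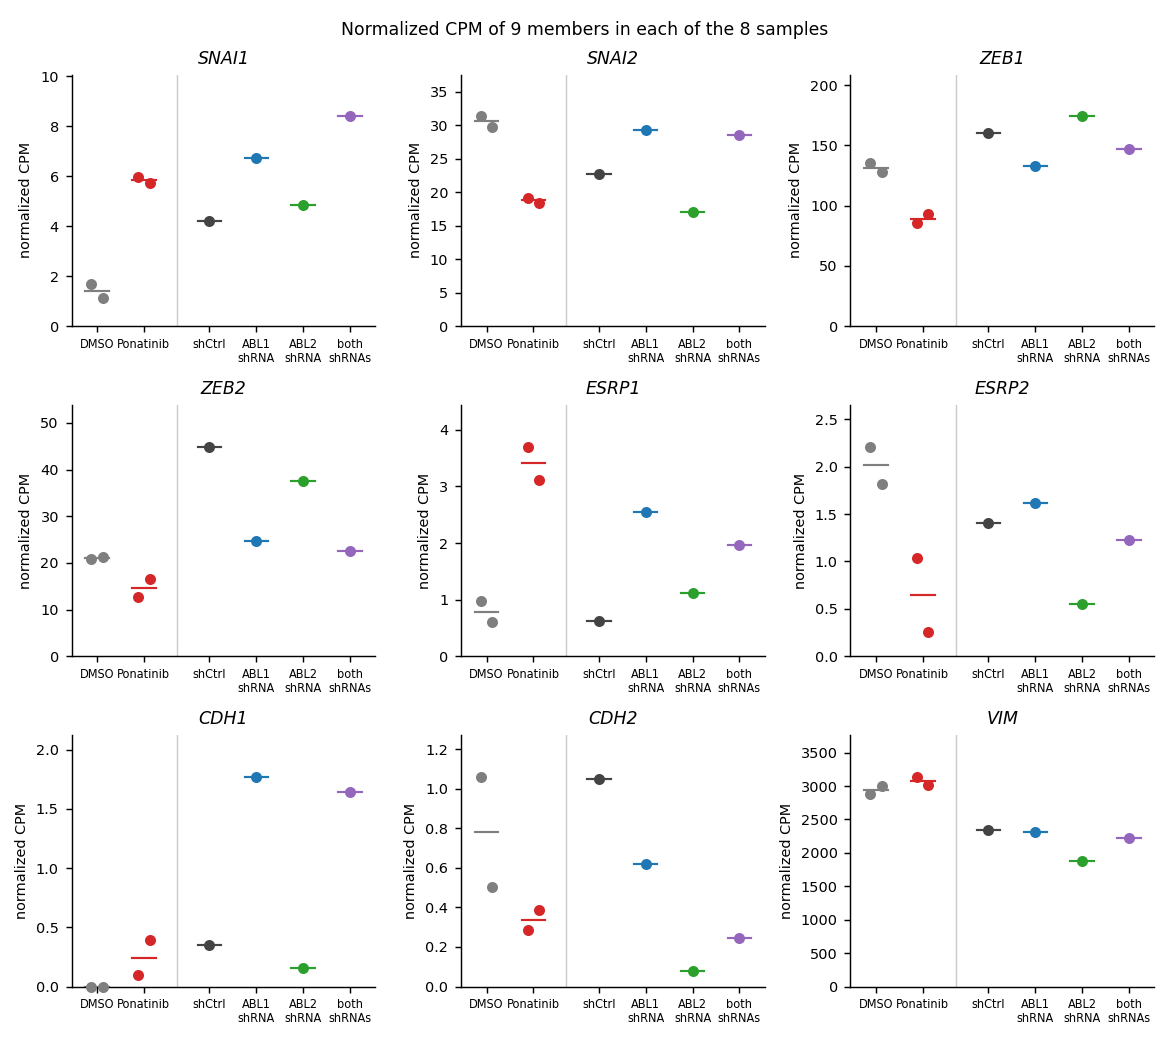
Normalized CPM (y axis, from 0) of 9 of the 10 genes in each of the 8 samples, with 1 point per sample and a line at the group mean; a grey line separates the 2 experiments, which were normalized separately. TWIST1, at 0 in all samples, is not drawn. SNAI1 and ESRP1 lie higher in both Ponatinib samples than in both DMSO samples, SNAI2, ZEB1, ZEB2 and ESRP2 lie lower, and CDH1 stands highest with ABL1 shRNA and with both shRNAs.

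SNAI1 (ENSG00000124216, chr20:49982980-49988886, plus strand of GRCh38) encodes SNAIL, a short-lived repressor that binds E-box sequences in the CDH1 promoter. It had 19 and 11 reads in the DMSO samples and 63 and 44 in the Ponatinib samples, or 1.68, 1.11, 5.97 and 5.71 normalized CPM. Both treated samples thus lay far above both controls, and the treated pair was the tighter of the pairs. The means were 1.39 ± 0.4 and 5.84 ± 0.185 normalized CPM (SD, n = 2 each), or 2.04 as log2 fold change (SE 0.27, edgeR adjusted p = 4.5e-05 with Benjamini-Hochberg adjustment). With any 1 of the 4 samples left out the log2 fold change lay between 1.80 and 2.38.

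SNAI2 (ENSG00000019549, chr8:48917598-48921740, minus strand) encodes SLUG, the second SNAIL-family repressor, which is also a factor of basal and stem-like mammary cells. Its reads numbered 354 and 295 in DMSO and 203 and 142 with Ponatinib, which are 31.3, 29.8, 19.2 and 18.4 normalized CPM. The paralog thus moved opposite to SNAI1, with no overlap between the groups. From 30.5 ± 1.03 to 18.8 ± 0.576 normalized CPM (SD, n = 2 each), SNAI2 changed by a log2 fold change of -0.69 (SE 0.11, edgeR adjusted p = 0.00014). As a share of the summed SNAI1 and SNAI2 level per kb, SNAI1 made up 6.42% and 4.55% in DMSO and 28.4% in each Ponatinib sample. The sum itself went from 15.3 and 14.3 to 12.3 and 11.8 normalized CPM per kb, so SNAI2 remained the more abundant transcript of the pair in every sample.

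ZEB1 (ENSG00000148516, chr10:31318495-31529814, plus strand) encodes a zinc-finger homeobox repressor that silences CDH1, ESRP1 and the microRNAs that in turn restrain it. Read counts of 1531 and 1271 in DMSO and 901 and 717 with Ponatinib gave 135, 128, 85.4 and 93.1 normalized CPM. All the treated values lay below the controls. The means of 132 ± 4.79 and 89.2 ± 5.4 normalized CPM (SD, n = 2 each) differed by a log2 fold change of -0.57 (SE 0.07, edgeR adjusted p = 1.9e-05).

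ZEB2 (ENSG00000169554, chr2:144364364-144521057, minus strand), also called SIP1, is the SMAD-interacting paralog of ZEB1. In DMSO it had 236 and 210 reads and with Ponatinib 135 and 127, or 20.8, 21.2, 12.8 and 16.5 normalized CPM. The groups did not overlap, but the Ponatinib samples stood further apart than the DMSO samples. From 21 ± 0.267 to 14.6 ± 2.61 normalized CPM (SD, n = 2 each), the log2 fold change was -0.54 (SE 0.13, edgeR adjusted p = 0.0067). This call depends on the test and on Ponatinib replicate 1: DESeq2's Wald test gave an adjusted p of 0.086, and without that replicate the log2 fold change was -0.34 (edgeR adjusted p = 0.066). ZEB2 made up 8.99% and 9.57% of the summed ZEB level per kb in DMSO and 8.76% and 10.2% with Ponatinib, and the ranges of these shares overlapped between the groups.

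The SNAIL and ZEB proteins bind E-boxes of the form CAGGTG, which reads CACCTG on the other strand. RefSeq promoter windows (GRCh38.p14, 250 bases before to 50 after a start) were used for 4 of the 10 genes, ZEB1, ZEB2, CDH2 and VIM. Windows of the other genes, ESRP1 among them, were not examined for this motif. Among the windows of all genes, 7231 of 35116 (20.6%) held at least 1 such 6-base motif on either strand. Of the 7 ZEB1 windows 2 held it, and it was absent from the windows of ZEB2, CDH2 and VIM. The ZEB1 window with 3 E-boxes, the most of the 7, and the only ZEB2 window are shown as examples. Most ZEB1 windows lacked the motif, as the ZEB2 window did. Whether the motif has a part in the fall of either gene was not tested. Capitals mark the E-boxes, and each sequence runs 5′ to 3′ on the strand of its gene. A match is a description of the letters and not a measurement of binding.
ZEB1, chr10:31318966-31319265, plus strand: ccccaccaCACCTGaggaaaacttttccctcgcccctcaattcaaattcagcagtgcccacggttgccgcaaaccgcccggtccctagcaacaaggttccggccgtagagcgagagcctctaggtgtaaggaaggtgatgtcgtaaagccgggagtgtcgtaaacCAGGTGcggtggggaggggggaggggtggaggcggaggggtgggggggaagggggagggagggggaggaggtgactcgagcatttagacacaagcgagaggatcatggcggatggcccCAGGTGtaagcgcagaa
ZEB2, chr2:144520070-144520369, minus strand: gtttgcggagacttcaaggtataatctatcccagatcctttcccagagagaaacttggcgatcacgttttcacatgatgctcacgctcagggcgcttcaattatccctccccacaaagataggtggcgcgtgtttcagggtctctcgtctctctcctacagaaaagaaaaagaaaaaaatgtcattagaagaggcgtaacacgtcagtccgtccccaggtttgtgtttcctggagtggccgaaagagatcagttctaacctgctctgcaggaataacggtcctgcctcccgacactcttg

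TWIST1 (ENSG00000122691, chr7:19020991-19117636, minus strand), a basic helix-loop-helix factor of the mesoderm and neural crest, had 0 reads in all 8 samples. A level of up to 0.231 to 0.389 normalized CPM, depending on the sample, is allowed by that count. No fold change can be given for it in any comparison.

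The ESRP genes encode epithelial splicing regulatory proteins, RNA-binding factors that set the epithelial isoforms of transcripts such as FGFR2 and CD44. ESRP1 (ENSG00000104413, chr8:94641074-94707466, plus strand) had 11 and 6 reads in DMSO and 39 and 24 with Ponatinib, or 0.971, 0.606, 3.7 and 3.12 normalized CPM. Every treated value was more than 3 times the higher control value. Its means of 0.789 ± 0.258 and 3.41 ± 0.412 normalized CPM (SD, n = 2 each) differed by a log2 fold change of 2.09 (SE 0.35, edgeR adjusted p = 0.00033). With any 1 sample left out the value stayed between 1.81 and 2.48. ESRP2 (ENSG00000103067, chr16:68229033-68238102, minus strand) had 25 and 18 reads in DMSO and 11 and 2 with Ponatinib, or 2.21, 1.82, 1.04 and 0.26 normalized CPM. Ponatinib replicate 2 was below the floor of 3 counts, while replicate 1 lay between it and the controls. From 2.01 ± 0.275 to 0.651 ± 0.554 normalized CPM (SD, n = 2 each), the log2 fold change of ESRP2 was -1.49 (SE 0.46, edgeR adjusted p = 0.022). Without DMSO replicate 1 it was -1.35 (edgeR adjusted p = 0.15), without Ponatinib replicate 2 it was -0.95 (edgeR adjusted p = 0.13), without Ponatinib replicate 1 it was -2.89 (edgeR adjusted p = 0.0014), and DESeq2 gave an unadjusted p of 0.06 and no adjusted one. ESRP1 made up 28.6% and 23.3% of the summed ESRP level per kb in DMSO and 76.3% and 91.6% with Ponatinib. The sum was 0.901 and 0.691 normalized CPM per kb in DMSO and 1.29 and 0.902 with Ponatinib.

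**Figure D2:**
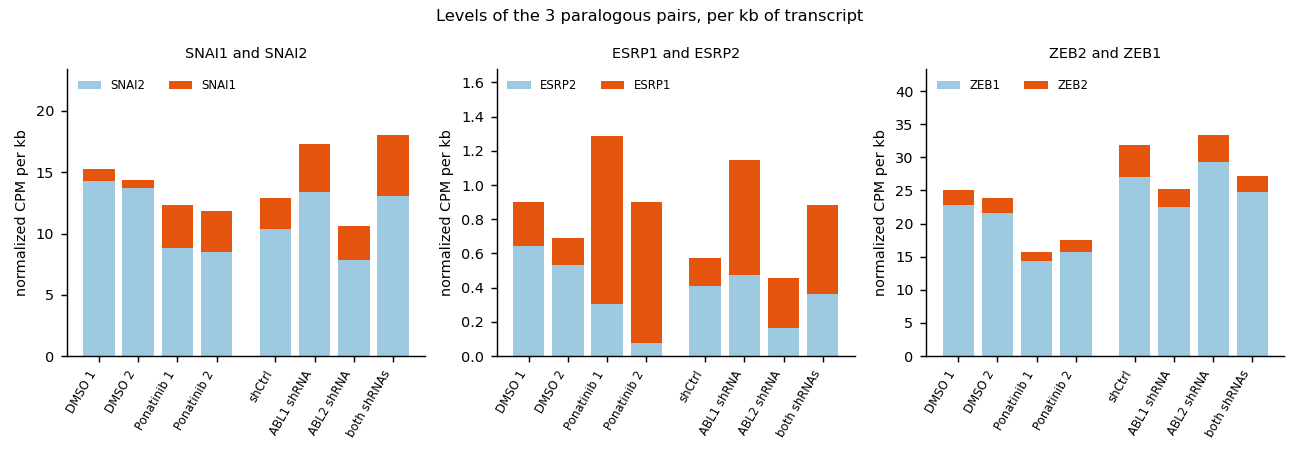
Levels of the 3 pairs of paralogs in each sample, as stacked bars of normalized CPM per kb of transcript from 0, with SNAI1, ESRP1 and ZEB2 in orange above SNAI2, ESRP2 and ZEB1 in blue; the 4 bars on the left are DMSO and Ponatinib and the 4 on the right the shRNA samples. The orange share grows with Ponatinib for SNAI1 (to 28.4%) and ESRP1 (to 76.3% and 91.6%) and stays between 8.76% and 10.2% for ZEB2.

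The cadherins were close to or below the limit of detection in this experiment. CDH1 (ENSG00000039068, chr16:68737292-68835537, plus strand), the E-cadherin gene, had 0 reads in both DMSO samples and 1 and 3 with Ponatinib, at or under the floor of 3 counts, so no fold is given. It lies 499 kb from ESRP2 on the same chromosome, on the opposite strand. CDH2 (ENSG00000170558, chr18:27932879-28177946, minus strand), the N-cadherin gene, had 12 and 5 reads in DMSO and 3 in each Ponatinib sample, or 1.06, 0.505, 0.284 and 0.389 normalized CPM. In a fit with no filter on low counts its log2 fold change was -1.26 (SE 0.67, edgeR adjusted p = 0.24) and CDH1 had an edgeR adjusted p of 0.35. No change of either cadherin was therefore detected, and with so few reads a small one could be missed. VIM (ENSG00000026025, chr10:17228241-17237593, plus strand), which encodes the main intermediate filament protein of mesenchymal cells, had 32687 and 29696 reads in DMSO and 33084 and 23217 with Ponatinib. These are 2886, 3000, 3137 and 3014 normalized CPM, a narrow range in which the treated samples lay just above the controls. The difference between 2943 ± 80.5 and 3075 ± 87.1 normalized CPM (SD, n = 2 each) was 0.06 on the log2 scale (SE 0.05, edgeR adjusted p = 0.41). Precision was high for this gene, and its log2 fold change with any 1 sample left out was 0.04 to 0.09.

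Several of these genes overlap other annotated transcripts, and whether counting used strand is not given in the sources used here, so reads of antisense partners cannot be told apart. VIM-AS1, opposite to VIM, shares 12.7% of the VIM exon bases and had 41 to 94 reads, few beside those of VIM. NFATC3 shares 4.37% of the ESRP2 exon bases on the opposite strand and had 190 to 269 reads per sample, more than ESRP2 itself. ZEB1-AS1 had 44 to 78 reads and shares 4.58% of the ZEB1 exon bases.

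The genes known to act around these 10 were taken from 10 lists of 228 genes in all, of which 183 were tested after Ponatinib. Among them 47 (25.7%) rose and 44 (24%) fell at an adjusted p under 0.05, against 15.0 percent and 15.7 percent of all genes tested, the shares beside which the counts of each list are to be read. By the DEG rule 8 (4.37%) rose and 4 (2.19%) fell, against 3.19 percent and 2.29 percent of all genes. The lists were chosen by hand and no test of these differences was made. The median log2 fold change was 0.03 over the 183 genes and -0.00 over all genes tested.

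Epithelial adhesion and polarity genes included 25 tested, of which 7 (28%) rose and 3 (12%) fell, with a median log2 fold change of 0.20. JUP, which encodes plakoglobin of desmosomes and adherens junctions, rose from 25.3 ± 2 to 50.7 ± 2.26 normalized CPM (SD, n = 2 each), or 1.01 as log2 fold change (edgeR adjusted p = 1.2e-06). The tight junction gene CLDN7 rose from 6.34 ± 0.53 to 12.4 ± 1.15 normalized CPM (log2 fold change 0.97, edgeR adjusted p = 0.0004). SPINT1, a membrane serine protease inhibitor of epithelia, met the DEG rule with a log2 fold change of 1.03 but had an edgeR adjusted p of 0.054. PKP2 of desmosomes fell by 0.52 and AP1M2, a subunit of the epithelial sorting adaptor AP-1B, fell by 0.63 on the log2 scale (edgeR adjusted p = 7.3e-05 and 0.00027). In the cadherin-catenin list, 11 genes were tested, 1 rose (9.09%, JUP again) and 3 fell (27.3%). The adherens junction receptors NECTIN1 and NECTIN2 were among the latter, at -0.79 and -0.29 in log2 fold change (edgeR adjusted p = 1.4e-05 and 0.0042).

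Intermediate filament genes split evenly, with 3 rising and 3 falling of 11 tested (27.3% each). The simple-epithelium keratin KRT18 fell by 0.55 on the log2 scale, while its relative KRT7 rose by 0.24 (edgeR adjusted p = 9.9e-06 and 0.0071). PLEC, the cytolinker plectin, had a log2 fold change of -0.43 and SYNM, the vimentin partner synemin, of 0.45 (edgeR adjusted p = 0.00025 and 0.0013).

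Mesenchymal surface, cytoskeleton and matrix genes gave 7 rises (18.9%) and 11 falls (29.7%) among 37 tested, with a median log2 fold change of -0.14. MMP14, a membrane-bound metalloproteinase, fell from 481 ± 2.87 to 253 ± 9.7 normalized CPM (log2 fold change -0.93, edgeR adjusted p = 2.3e-08). By contrast, the collagen cross-linking enzyme LOX rose from 45.8 ± 1.22 to 131 ± 5.75 normalized CPM (log2 fold change 1.51, edgeR adjusted p = 9e-10). PDGFRB, the platelet-derived growth factor receptor beta, rose from 1.91 ± 0.582 to 5.59 ± 0.535 normalized CPM (log2 fold change 1.55, edgeR adjusted p = 0.00046).

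**Figure D3:**
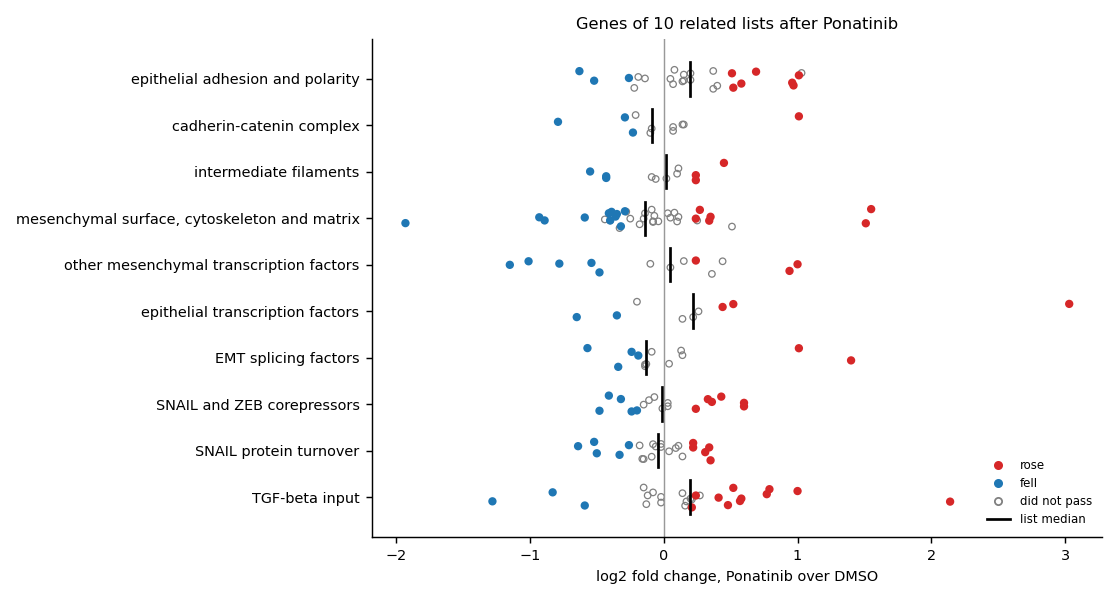
Log2 fold change of Ponatinib over DMSO (x axis) for each tested gene of the 10 related lists (rows), with 1 point per gene, filled where the edgeR adjusted p was under 0.05 (red rose, blue fell) and open where it was not; the black bar is the list's median and vertical scatter within a row has no meaning. ELF3, at 3.03, lies furthest above 0.

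Other transcription factors also moved in both directions. Of 13 tested mesenchymal factors 3 (23.1%) rose and 5 (38.5%) fell. ETS1 and the chromatin protein HMGA2 fell more than any ZEB gene did, at -1.15 and -1.01 in log2 fold change (edgeR adjusted p = 2.3e-09 and 1.4e-08), while SOX4 and RUNX2 rose by 1.00 and 0.94 (edgeR adjusted p = 4e-05 and 3.1e-07). Of 9 tested epithelial factors 3 (33.3%) rose and 2 (22.2%) fell. ELF3, an ETS-family factor of epithelia, had 10 and 13 reads in DMSO and 101 and 63 with Ponatinib. Its mean rose from 1.1 ± 0.304 to 8.88 ± 0.989 normalized CPM (SD, n = 2 each), or 3.03 as log2 fold change (edgeR adjusted p = 6.4e-07). KLF4 rose by 0.52, TFAP2C fell by 0.65 and FOXA2 fell by 0.35 on the log2 scale (edgeR adjusted p = 3.2e-05, 4.5e-05 and 0.0035).

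Beside the ESRP genes, 13 splicing factors linked to EMT were tested, and 2 (15.4%) rose and 4 (30.8%) fell. RBM47, an RNA-binding protein of epithelial cells, rose from 6.35 ± 0.871 to 16.9 ± 2.72 normalized CPM (SD, n = 2 each), or 1.40 as log2 fold change (edgeR adjusted p = 1.8e-05). The muscleblind-like factor MBNL2 rose by 1.01, while SRSF1 fell by 0.57 and HNRNPF by 0.34 on the log2 scale (edgeR adjusted p = 1.3e-06, 4.4e-06 and 0.00042).

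Corepressors recruited by SNAIL and ZEB proteins gave 6 rises (35.3%) and 5 falls (29.4%) among 17 tested. The histone methyltransferase EHMT2 (G9a) and the corepressor CTBP2 both rose by 0.60, whereas PRMT5 fell by 0.48 and SUV39H1 by 0.41 on the log2 scale (edgeR adjusted p = 1.1e-05, 1e-05, 7.2e-05 and 0.0027). Genes for the turnover of SNAIL protein gave 5 rises and 5 falls (22.7% each) among 22 tested. Of the ubiquitin ligase adaptors, BTRC and FBXO11 rose by 0.35 and 0.34 and FBXO45 fell by 0.52, and the kinase LATS2 fell by 0.64 on the log2 scale (edgeR adjusted p = 0.012, 0.012, 0.00021 and 1.5e-05). These are mRNA changes, and the level of SNAIL protein was not measured.

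Genes of the TGF-beta input to EMT gave 11 rises (42.3%) and 3 falls (11.5%) among 26 tested, beside 15.0 percent and 15.7 percent of all genes, with a median log2 fold change of 0.20. The movers had differing roles. ID2, an inhibitor of helix-loop-helix factors, rose from 1.13 ± 0.0259 to 4.96 ± 0.768 normalized CPM (SD, n = 2 each), or 2.14 as log2 fold change (edgeR adjusted p = 5.6e-05). The ligand TGFB3 rose by 1.00 (edgeR adjusted p = 0.0043). INHBA, the activin subunit, fell by 1.28, and the ubiquitin ligase SMURF2, which restrains the pathway, fell by 0.83 on the log2 scale (edgeR adjusted p = 0.0023 and 9.4e-08).

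The second set of comparisons asks how the same genes differed with knockdown of ABL1, ABL2 or both. Against 190 normalized CPM of ABL1 in shCtrl, the ABL1 shRNA library held 72.8, the ABL2 shRNA library 203 and the double knockdown 109. For ABL2 the same libraries held 236, 213, 93.5 and 148 normalized CPM. Each shRNA library thus held less of its labelled target, and the double knockdown held more of each target than the matching single knockdown did. Relative to shCtrl, ABL1 was at 0.384 in the single and 0.576 in the double knockdown, and ABL2 at 0.396 and 0.625. After Ponatinib, for comparison, ABL2 mRNA fell to 0.492 of its DMSO level (log2 fold change -1.02, edgeR adjusted p = 8.6e-08) and ABL1 rose 1.14-fold (log2 fold change 0.19, edgeR adjusted p = 0.029), a call that is lost under DESeq2 (adjusted p = 0.11) and without either DMSO replicate (edgeR adjusted p = 0.21 and 0.26).

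With 1 library per condition no difference in this experiment has a replicate check. Ratios are given with 95% exact (Clopper-Pearson) intervals that cover counting error only, and all 3 comparisons share the same shCtrl library. A gene is counted as higher or lower where it was past 2-fold with at least 10 reads in the higher library. With ABL1 shRNA, 2 of the 9 genes with enough reads were higher, ESRP1 and CDH1, and 0 lower, where 4.87 percent of all genes were higher and 4.02 percent lower. With ABL2 shRNA, 0 of 8 were higher and 2 lower, ESRP2 and CDH2, beside 4.65 percent and 3.07 percent of all genes. In the double knockdown, 2 of 9 were higher, ESRP1 and CDH1, and 1 lower, CDH2, beside 4.47 percent and 3.27 percent of all genes. All of these genes had 33 or fewer reads per library.

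In shCtrl, CDH1 had 4 reads, while it had 23 in the ABL1, 2 in the ABL2 and 20 in the double knockdown. These are 0.351, 1.77, 0.159 and 1.64 normalized CPM, so the libraries with ABL1 shRNA were high and the other pair was near the floor. The ratio to shCtrl was 5.04 (1.72 to 20.1) with ABL1 shRNA, 0.452 (0.0409 to 3.15) with ABL2 shRNA and 4.68 (1.57 to 18.8) with both. Set directly against the ABL2 shRNA library, CDH1 was 11.2 times as high (2.76 to 97.6) with ABL1 shRNA. Even at its highest, the E-cadherin level of 0.369 normalized CPM per kb was small beside the 1072 of VIM in the same library. CDH2 had 12, 8, 1 and 3 reads in the same order of libraries, or 1.05, 0.617, 0.0794 and 0.247 normalized CPM. N-cadherin was thus highest in shCtrl. Its ratio was 0.585 (0.207 to 1.56) with ABL1 shRNA, 0.0754 (0.00176 to 0.509) with ABL2 shRNA and 0.234 (0.0424 to 0.867) with both.

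ESRP1 had 7, 33, 14 and 24 reads in shCtrl, ABL1 shRNA, ABL2 shRNA and both, or 0.615, 2.54, 1.11 and 1.97 normalized CPM. It was lowest in shCtrl and its ratio was 4.14 (1.8 to 11.1) with ABL1 shRNA, 1.81 (0.683 to 5.29) with ABL2 shRNA and 3.21 (1.34 to 8.82) with both. ESRP2 had 16, 21, 7 and 15 reads, or 1.41, 1.62, 0.556 and 1.23 normalized CPM. ESRP2 was lowest with ABL2 shRNA, at a ratio of 0.396, whose interval of 0.138 to 1.02 included 1. With ABL1 shRNA its ratio was 1.15 (0.572 to 2.36) and with both 0.877 (0.404 to 1.89). ESRP1 made up 28.5% of the summed ESRP level per kb in shCtrl, a share close to that in DMSO, and 58.8%, 64.5% and 59.3% in the 3 knockdowns.

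SNAI1 had 48, 87, 61 and 102 reads, or 4.22, 6.71, 4.85 and 8.39 normalized CPM. Each knockdown library lay above shCtrl, the double knockdown most, at a ratio of 1.99 (1.4 to 2.86), just short of 2-fold. The ratio was 1.59 (1.11 to 2.31) with ABL1 shRNA and 1.15 (0.774 to 1.71) with ABL2 shRNA. SNAI2 had 258, 380, 214 and 348 reads, or 22.7, 29.3, 17 and 28.6 normalized CPM. It was higher than shCtrl in both libraries with ABL1 shRNA, by 1.29 (1.1 to 1.52) and 1.26 (1.07 to 1.49), and lower with ABL2 shRNA alone, at 0.75 (0.623 to 0.903). SNAI1 made up 19.2% of the SNAIL pair per kb in shCtrl and 22.6%, 26.7% and 27.3% in the knockdowns.

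ZEB2 had 511, 319, 472 and 274 reads, or 44.9, 24.6, 37.5 and 22.5 normalized CPM. Again the 2 libraries with ABL1 shRNA were alike and stood apart, here below the others. The ratio was 0.548 (0.475 to 0.631) with ABL1 shRNA, 0.835 (0.735 to 0.948) with ABL2 shRNA and 0.502 (0.432 to 0.582) with both, the last only just inside 2-fold. ZEB1 differed far less, with 1826, 1731, 2186 and 1788 reads, or 160, 133, 174 and 147 normalized CPM. Its ratios were 0.832 (0.778 to 0.889), 1.08 (1.02 to 1.15) and 0.916 (0.858 to 0.978). ZEB2 accordingly made up 15.2% of the ZEB pair per kb in shCtrl and 10.6%, 12.2% and 8.94% in the ABL1, ABL2 and double knockdowns.

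VIM had 26666, 29960, 23622 and 27099 reads, or 2343, 2309, 1877 and 2228 normalized CPM. Its level with ABL2 shRNA was the lowest, at a ratio of 0.801 (0.787 to 0.815). With ABL1 shRNA it was 0.986 and with both shRNAs 0.951 (0.935 to 0.967), intervals made narrow by the many reads.

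Set directly against each other, the double and the ABL1 single knockdown had ratios whose counting intervals included 1 for 7 of the 9 genes compared, the exceptions being ZEB1 (1.1, 1.03 to 1.18) and VIM (0.965, 0.949 to 0.981). Against the ABL2 single knockdown, the interval included 1 for 2 of 8, ESRP1 and ESRP2. SNAI1 was 1.73 times (1.25 to 2.42) and SNAI2 1.68 times (1.42 to 2) as high in the double as in the ABL2 knockdown, and ZEB2 was at 0.601 (0.516 to 0.699).

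**Figure D4:**
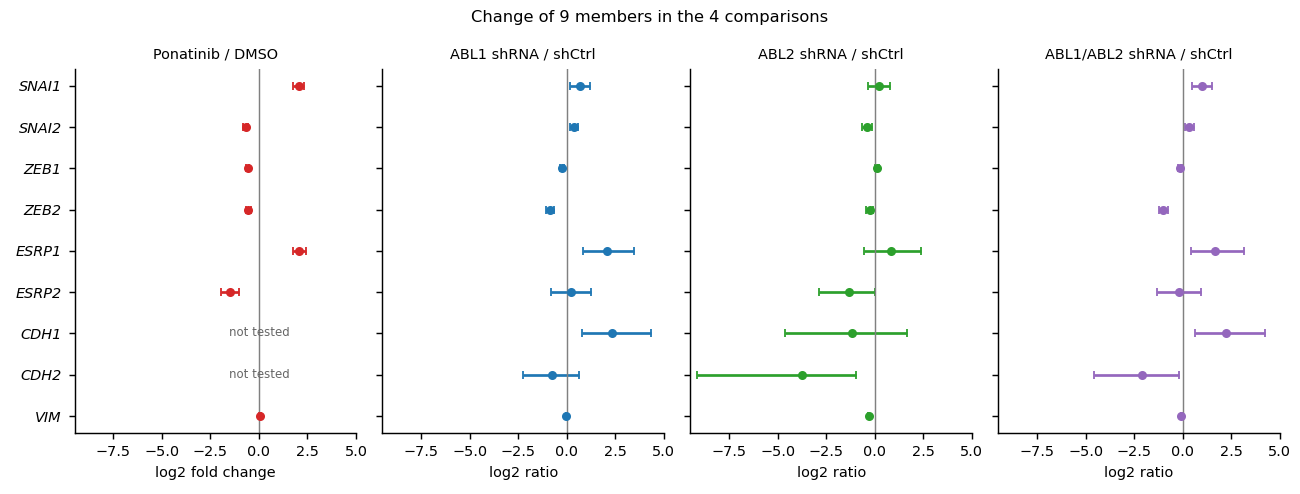
Log2 change of 9 genes (rows) in the 4 comparisons (panels, x axes on 1 scale). For Ponatinib over DMSO the bars are standard errors of the edgeR fit (n = 2 each), and for each shRNA over shCtrl they are 95% counting intervals of single libraries, so bars of the first panel and the others are not alike. SNAI1 and ESRP1 lie above 0 in all panels, with intervals that reach 0 for ABL2 shRNA, while SNAI2 lies below 0 with Ponatinib and with ABL2 shRNA and above 0 in both libraries with ABL1 shRNA.

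Placed side by side, Ponatinib and the double knockdown gave fold changes of 4.12 and 1.99 for SNAI1, of 4.25 and 3.21 for ESRP1 and of 0.687 and 0.502 for ZEB2. For SNAI2 they were 0.618 and 1.26, for ZEB1 0.675 and 0.916, for ESRP2 0.355 and 0.877, and for VIM 1.05 and 0.951. Only the first value of each pair has a replicate behind it. The starting levels of the control libraries also differed, since SNAI1 was at 4.22 normalized CPM in shCtrl and 1.68 and 1.11 in DMSO, and ZEB2 at 44.9 in shCtrl and 20.8 and 21.2 in DMSO.

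Among the related genes, the fibrillar collagen gene COL3A1 had 42 reads in shCtrl and 3, 7 and 0 in the ABL1, ABL2 and double knockdowns, with an upper limit of 0.0859 on the ratio of the last. MMP2, a gelatinase, went from 96.9 normalized CPM in shCtrl to 22, 25.3 and 22.1, ratios of 0.227, 0.262 and 0.228. With ABL1 shRNA, COL1A1 was at 0.244, and the TGF-beta target PMEPA1 at 2.59, SPINT1 at 2.33 and S100A14, with 2 and 11 reads, at 4.82 (1.05 to 44.8) of shCtrl. With ABL2 shRNA, ELF3 was at 0.184, the third SNAIL-family gene SNAI3 at 3.62 (1.32 to 12.3, from 5 and 20 reads), and ID1 and NECTIN1 both at 2.68. In the double knockdown, the tight junction gene CLDN1 was at 0.266, S100A14 at 4.68 (0.997 to 43.9), ID1 at 2.83 and the keratin KRT81 at 2.21. Of 194 related genes with enough reads, 4 were higher and 11 lower in the ABL1 knockdown, 6 and 11 in the ABL2 knockdown and 5 and 12 in the double knockdown. These are 2.06%, 3.09% and 2.58% higher and 5.67%, 5.67% and 6.19% lower, where of all genes 4.87, 4.65 and 4.47 percent were higher and 4.02, 3.07 and 3.27 percent lower. Of 39 mesenchymal surface and matrix genes, 0 were higher and 6 (15.4%), 2 (5.13%) and 5 (12.8%) were lower in the same order. Lower genes were not particular to that list. Of the epithelial adhesion and polarity genes, 6.9%, 10.7% and 13.8% were lower and 6.9%, 0% and 3.45% higher. Of 10 epithelial transcription factors, 1, 2 and 2 were lower and 0, 1 and 0 higher.

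The summed level of 7 fibroblast markers, which include COL1A1 and COL3A1 named above, also differed between the libraries. It was 420 normalized CPM in shCtrl and 107, 237 and 146 in the ABL1, ABL2 and double knockdowns, nearly all of it COL1A1, while it was 65.2 and 66 in DMSO and 82.7 to 90 with Ponatinib. Of the other fibroblast markers, DCN, LUM and PDGFRA had at most 4, 7 and 2 reads in any sample. PDGFRB had 17 to 106 reads per sample, COL3A1 0 to 42 and COL1A2 1 to 18. The 6 leukocyte markers summed to 3.87 normalized CPM in shCtrl and 2.93 to 5.24 in the knockdowns, 1.21 to 1.5 in DMSO and 1.52 to 1.95 with Ponatinib. PTPRC and CD3E had 0 to 3 reads per sample, while CSF1R had 9 to 57 and LYZ 1 to 17. The 5 endothelial markers summed to 27.5 in shCtrl and 35.2 to 44.2 in the knockdowns, 11.3 to 11.6 in DMSO and 7.77 to 7.92 with Ponatinib, mostly from PECAM1 and KDR, with CDH5 and TEK at no more than 3 reads. Their part in the differences of the 10 genes was not tested.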

How the data were processed

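RNA of LM2 cells was sequenced in 8 samples. The authors built NEBNext Ultra libraries, sequenced them on a HiSeq 2500, mapped reads to hg38 (the submitters' processing notes name TopHat, FastQC and HTSeq 0.6.0) and deposited raw read counts per gene, without normalization. Strand setting and annotation release are not given in the sources used here. HTSeq summary rows, present only in the shRNA files (15.7% to 16% of their reads), were left out. Symbols, positions and canonical transcript lengths came from GENCODE 44 (GRCh38), which matched 54836 of 58688 IDs.

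Ponatinib was compared with DMSO by edgeR 4.0.16 in R 4.3.3 (filterByExpr, TMM, quasi-likelihood test, prior count 0.125, Benjamini-Hochberg adjustment over all genes tested). On simulated counts of this comparison (15785 genes), 200 of 200 changed genes were recovered and 11 unchanged genes were called. These totals are not split by read count or fold. Recovery of genes with as few reads as SNAI1, ESRP1 and ESRP2 was not tested separately. The same holds for folds as small as those of SNAI2, ZEB1 and ZEB2. Knockdowns, with 1 library each, were given as ratios with exact 95% counting intervals (scipy 1.17.1). The DMSO pair and the Ponatinib pair differed by more than counting noise (chi-square per degree of freedom 1.4 and 2.92).

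The 10 genes and the related lists were chosen with earlier results of these data known. Of each list, DEGs and the 2 largest rises and falls are named, and per knockdown the 3 listed genes furthest above and below shCtrl. The list entry DUB3 was not matched. Some genes that these rules would name are not reported here. Alternatives were DESeq2 1.42.0, other scalings, filters, folds and prior count, a replicate block, a fit of all 8 samples, and leaving out each sample.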

Additional observations from a re-analysis of the deposited data

How the results depend on the processing

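SNAI1, SNAI2, ZEB1 and ESRP1 kept their direction and call after Ponatinib under every alternative in which they were tested, apart from the fold limit of the DEG rule, which SNAI2 and ZEB1 did not reach. Over all single genes, direction and side of the threshold (for VIM, not passing) were kept in 98 runs, and the call was lost in 7 (ZEB2, ESRP2 and ABL1). DESeq2's Wald test called 2 falling members, 30 rising related genes and 1167 rising and 1409 falling genes of all. A floor of 10 counts in every sample left 1 rising member, since ESRP1 was no longer tested. The DEG rule gave 1 falling member, 8 rising and 4 falling related genes, and 511 rising and 367 falling genes of all.

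Leaving out each sample gave 2 to 2 rising and 3 to 4 falling members, 30 to 56 rising and 33 to 55 falling related genes, and 1355 to 2809 rising and 1445 to 2935 falling genes of all. The lowest counts came without DMSO replicate 1, and without DMSO replicate 2 there were 1560 rising genes.

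Deviations from the group means were almost uncorrelated between same-numbered samples (r = 0.0158 over 10278 genes, not independent replicates), which share only a number. With a replicate block 2 members rose and 4 fell, and 2423 and 2561 genes of all.

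For the knockdowns, a minimum of 100 counts left 0 members past the fold in each direction, and of all genes 189 higher and 213 lower (ABL1 shRNA), 186 and 126 (ABL2 shRNA) and 153 and 136 (both). A minimum of 1 count gave 3356 and 3736, 3357 and 3518, and 3307 and 3602. A 1.5-fold limit gave 1987 and 1779, 1849 and 1278, and 1830 and 1490, with 2 members lower with ABL1 shRNA, 1 higher with ABL2 shRNA and 2 lower with both. A fit of all 8 samples, whose spread comes from the other experiment, with an unadjusted p under 0.05 required beside the 2-fold limit, gave 1 lower member with ABL2 shRNA and 468 higher genes with both. The cause of these shifts was not tested beyond the number of genes each limit admits. The few reads of CDH1, CDH2, TWIST1 and ESRP2 limit what these libraries can show.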
